A study of Homo sapiens with 12 samples.

Results

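The RAB GTPases were followed across the 12 exon arrays of the series. Members were the genes whose symbol is RAB, a number and at most 1 letter from A to D, reached through the transcript that each probe of the array is assigned to. RefSeq holds 64 such symbols. The array carried probes for 62 of them, all but RAB1C and RAB7B, and 58 had at least 1 probe above background and were tested among 18253 genes. RAB19, RAB3C, RAB39B and RAB40A had probes but none that was kept. The tested members had between 1 and 16 kept probes, with a median of 6, and 5 of them rested on 1 probe.

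The cells were MDA-MB-231, an established line of triple-negative breast cancer, and RNA from biological triplicates was hybridized in a single color. The 3 cntrl arrays came from cells given control oligonucleotides for both the mimic and the siRNA. The 3 mimic145 arrays came from cells overexpressing miR-145-5p through a transfected precursor at 5 nM. The 3 sirnaAGO2 arrays came from cells in which AGO2, an Argonaute protein that miRNAs guide to their target mRNAs, was silenced with a Dicer-substrate siRNA at 500 pM for 72 h. The 3 sirnaAGO2+mimic145 arrays came from cells that received both, so that no group was untransfected and both arms have their own reference. All values are from 1 cell line, and a lower signal from fewer cells with the transcript cannot be told apart from less RNA per cell.

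RAB proteins are small GTPases that switch between a GTP-bound form on membranes and a GDP-bound form that can be extracted into the cytosol. Each marks particular compartments, where it recruits motors, tethers and other effectors, so that the family as a whole directs budding, transport and fusion of vesicles. Exchange factors load them with GTP, GTPase-activating proteins switch them off, and escort proteins handle their prenylated tails. The strand that the mimic delivers is given here as the agent of every mimic comparison, with its seed (bases 2 to 8, which pair with target mRNAs) in capitals. It is the RefSeq mature miRNA of MIR145 on the plus strand of GRCh38.p14, at chr5:149430661-149430683.
hsa-miR-145-5p: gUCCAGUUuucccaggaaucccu
Sites for this seed in the RAB transcripts were not analysed here.

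Values are log2 of the quantile-normalized signal, averaged over the kept probes of a gene. They compare arrays for 1 gene and not different genes with each other. A difference of 1 is a doubling, and a gene is said to have risen or fallen where limma's test, blocked on replicate number and adjusted over all 18253 genes by Benjamini-Hochberg, gave an adjusted p under 0.05. On each array between 60.5% and 77.3% of spots were well above background, and no spot was saturated. AGO2 itself, read by 19 probes, gave 9.21, 9.14 and 9.01 in cntrl, 9.44, 9.36 and 9.39 in mimic145, 8.35, 8.44 and 8.42 in sirnaAGO2, and 8.27, 8.35 and 8.41 in sirnaAGO2+mimic145. It was left at 61.0% of cntrl in sirnaAGO2 (adjusted p = 0.00491) and at 48.1% of mimic145 in sirnaAGO2+mimic145 (adjusted p = 0.000783). Silencing was thus partial by the mRNA signal. The study followed the AGO2 protein by Western blot, and the arrays do not read protein. The AGO2 signal was also 1.21-fold higher in mimic145 than in cntrl (adjusted p = 0.0298). Of the markers of the line, the mesenchymal VIM, CD44 and AXL were read in cntrl by all of their probes. PGR had 0 of 9 probes kept, ESR1 6 of 14, CDH1 7 of 16 and ERBB3 11 of 29. The claudins CLDN3 and CLDN4, which are low in this kind of line, were each read above background on all cntrl arrays by their only probe. Their cntrl means were 8.93 and 15.44, so a low signal was not seen for CLDN4.

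In cells without AGO2 silencing, called control cells below, the mimic moved 15 of the 58 RAB genes, or 25.9%. RAB6A, RAB6C, RAB6D, RAB7A, RAB13, RAB14, RAB31 and RAB38 fell, and RAB8B, RAB18, RAB43, RAB1A, RAB4B, RAB36 and RAB11A rose. Over all genes the share that passed in this comparison was 22.6%, with 11% lower and 11.6% higher, so the family as a whole was close to the background. The median log2 difference was 0.07 over the 58 RAB genes and 0.01 over all genes. The arrays of the groups did not overlap for 12 members, 5 lower and 7 higher, where 13.5% of all genes lay apart in the lower direction, 14.9% in the higher and 28.4% in either. The changes ran from RAB7A, at 52.7% of its cntrl signal, to RAB8B, at 1.94-fold.

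**Figure D1:**
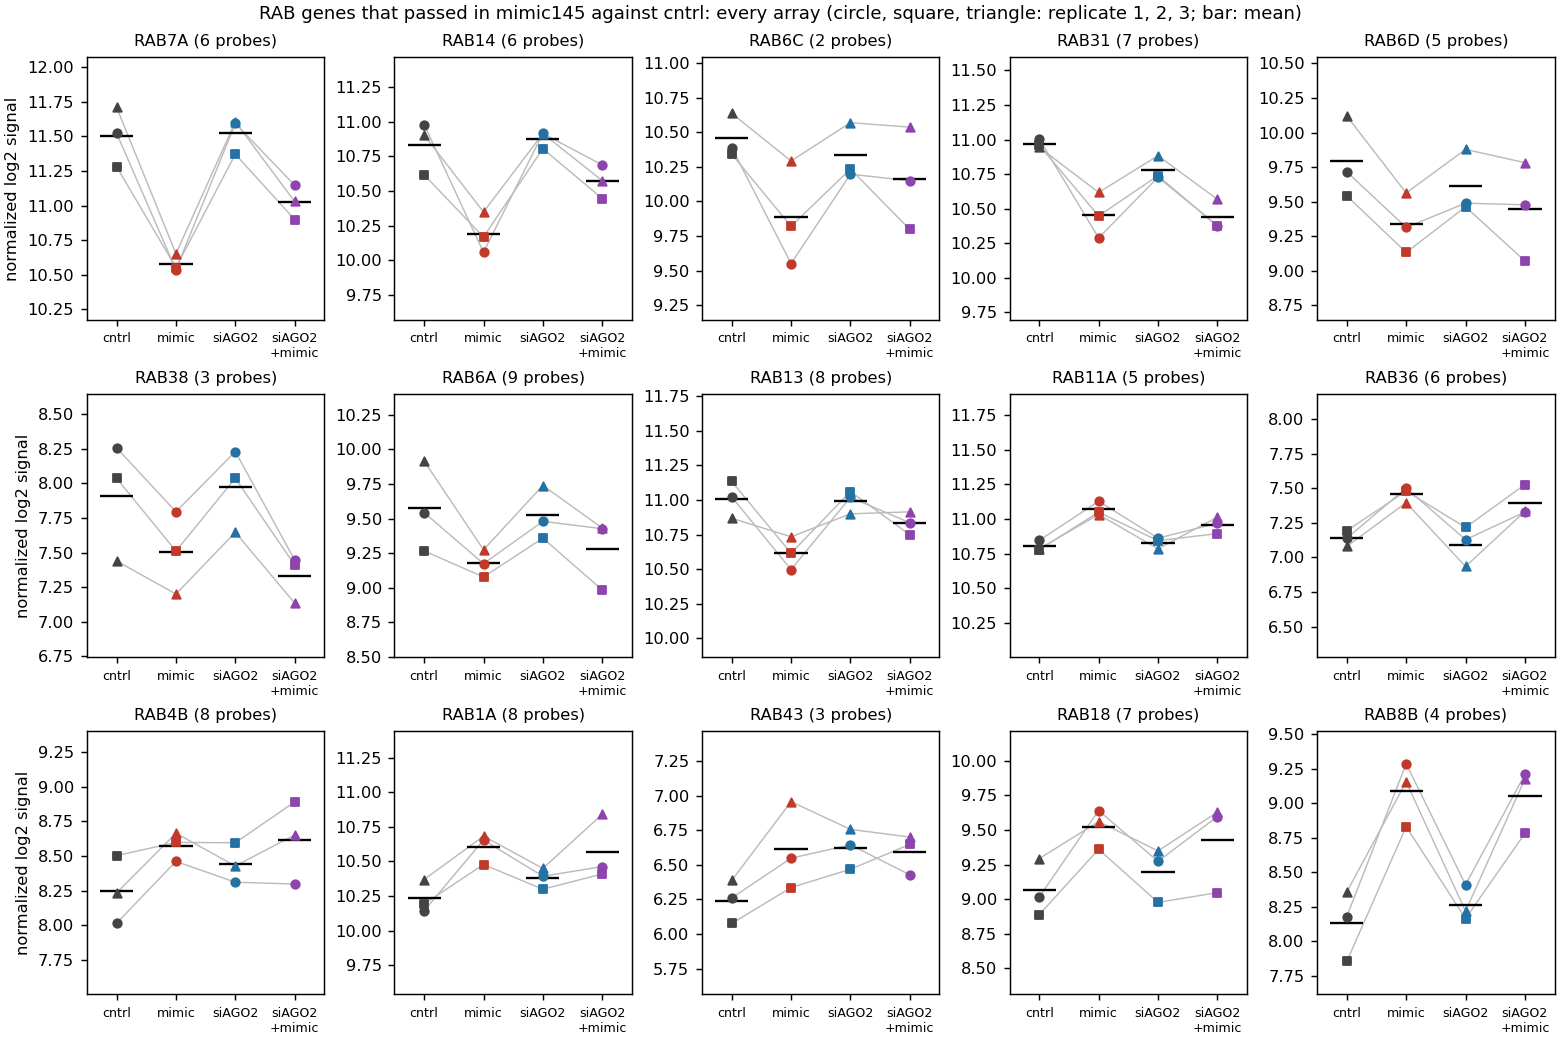
Normalized log2 signal of the 15 RAB genes that passed in mimic145 against cntrl, on each of the 12 arrays; every panel spans the same log2 range, grey lines join arrays of 1 replicate number, and bars are group means. RAB7A falls from between 11.28 and 11.71 in cntrl to between 10.54 and 10.65 in mimic145, and RAB8B rises from between 7.86 and 8.36 to between 8.83 and 9.29.

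RAB7A, which controls the transport of late endosomes and their fusion with lysosomes, read 11.52, 11.28 and 11.71 in cntrl and 10.54, 10.55 and 10.65 in mimic145. All mimic145 arrays lay below all cntrl arrays. The log2 difference was -0.93 (SE 0.084, adjusted p = 0.000242), which leaves 52.7% of the cntrl signal, and the replicate pairs differed by -0.99, -0.73 and -1.06. All 6 of its probes were lower, by -1.37 to -0.68. The other members placed at late endosomes, lysosomes and autophagosomes did not pass: RAB9A had a log2 difference of -0.10, RAB24 of 0.07 and RAB9B of 0.45, the last with an SE of 0.21 over 2 probes.

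RAB14, which acts between the trans-Golgi network and endosomes, read 10.98, 10.62 and 10.90 in cntrl and 10.06, 10.17 and 10.35 in mimic145. These arrays did not overlap. The log2 difference was -0.64 (SE 0.095, adjusted p = 0.00181), or 64.0% of the cntrl signal. Its 6 probes were all lower but not alike: 4 of them lay between -1.04 and -0.78, and the other two at -0.15 and -0.09. Among the other recycling RABs, RAB11A, the main GTPase of the recycling endosome, read 10.85, 10.78 and 10.79 in cntrl and 11.13, 11.05 and 11.03 in mimic145, without overlap. Its rise was small but even over the pairs, at 0.28, 0.27 and 0.25 (log2 difference 0.27, SE 0.061, adjusted p = 0.0138), although 1 of its 5 probes was lower by -0.34, and with the median over probes the difference was 0.41 and did not pass (adjusted p = 0.0724). RAB4B, of fast recycling from early endosomes, rose by 0.32 (SE 0.092, adjusted p = 0.0339) with overlapping arrays, or by 0.57 with the median over probes. RAB4A, RAB11B, RAB15, RAB17, RAB25 and RAB35 did not pass, and their log2 differences ran from -0.24 for RAB17 to 0.18 for RAB35.

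RAB31, a member of the RAB5 branch that moves cargo from the trans-Golgi network to endosomes, read 11.00, 10.96 and 10.94 in cntrl and 10.29, 10.45 and 10.62 in mimic145. The groups were separate, and all 7 probes were lower, by -0.64 to -0.32. The log2 difference was -0.52 (SE 0.078, adjusted p = 0.00200), or 69.8% of the cntrl signal. The early endosome RABs around it gave values near 0: RAB5A, RAB5B and RAB5C, which govern fusion of early endosomes, had log2 differences of 0.10, 0.05 and 0.10, and RAB22A, the closest paralog of RAB31, one of 0.19. None of these passed, with standard errors between 0.067 and 0.11, and neither did RAB20 and RAB21, at 0.06 and 0.08.

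Of the 16 RABs grouped at the ER and Golgi, 7 passed, 3 lower and 4 higher. That is 43.8%, where 22.6% of all genes passed (11% lower, 11.6% higher). RAB6A, which directs retrograde traffic from and within the Golgi, read 9.54, 9.27 and 9.92 in cntrl and 9.17, 9.08 and 9.27 in mimic145. Those ranges touched at 9.27, but the mimic145 array was the lower one in each pair (log2 difference -0.40, SE 0.097, adjusted p = 0.0181, 8 of 9 probes lower). RAB6C and RAB6D, near-identical copies of RAB6A, fell by 0.57 (SE 0.12, adjusted p = 0.00964, 2 probes) and by 0.46 (SE 0.081, adjusted p = 0.00444, 5 probes) on the log2 scale. Copies this close can share labelled RNA on a probe, so these 3 readings are uncertain as separate measurements. They are the 3 lower genes of this group, so its count of 7 and its share are uncertain too. The placing of RAB18, RAB36 and RAB43 in this group is a simplification, which adds to that uncertainty. RAB6B, the diverged form known from brain, had a log2 difference of -0.33 over 2 probes and did not pass (adjusted p = 0.0676). Where dim probes were kept, RAB6D had a log2 difference of -0.35 and did not pass (adjusted p = 0.0847), and with the median over probes RAB6A did not (adjusted p = 0.0983).

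The 4 Golgi and ER members that rose did so by 0.32 to 0.46 on the log2 scale. RAB18, which sits on the ER and on lipid droplets, read 9.02, 8.89 and 9.29 in cntrl and 9.64, 9.36 and 9.56 in mimic145, without overlap, and all 7 probes were higher (log2 difference 0.46, SE 0.093, adjusted p = 0.00866). RAB1A, which is required for transport from the ER to the Golgi, read 10.14, 10.19 and 10.37 in cntrl and 10.65, 10.48 and 10.68 in mimic145, again apart (log2 difference 0.37, SE 0.083, adjusted p = 0.0127). RAB36, a Golgi RAB that binds effectors of the RILP family, read 7.14, 7.19 and 7.08 against 7.50, 7.48 and 7.40 (log2 difference 0.32, SE 0.068, adjusted p = 0.0100). RAB43 had overlapping arrays and the highest adjusted p of the 15 (log2 difference 0.37, adjusted p = 0.0361). It did not pass with 75th percentile scaling (0.49, adjusted p = 0.0787), with the median over probes (0.34, adjusted p = 0.0739) or with only probes above background on every array (0.23, adjusted p = 0.522), and with normexp its size was 0.21. RAB2A, another RAB of traffic between the ER and the Golgi, read 11.59 ± 0.15 (SD, n = 3) in cntrl and had a log2 difference of -0.04, which did not pass. The other Golgi and ER members that did not pass, RAB1B, RAB2B, RAB30, RAB33A, RAB33B, RAB34, RAB41 and RAB6B, ran from -0.40 for RAB33A, on 1 probe, to 0.21 for RAB2B.

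**Figure D2:**
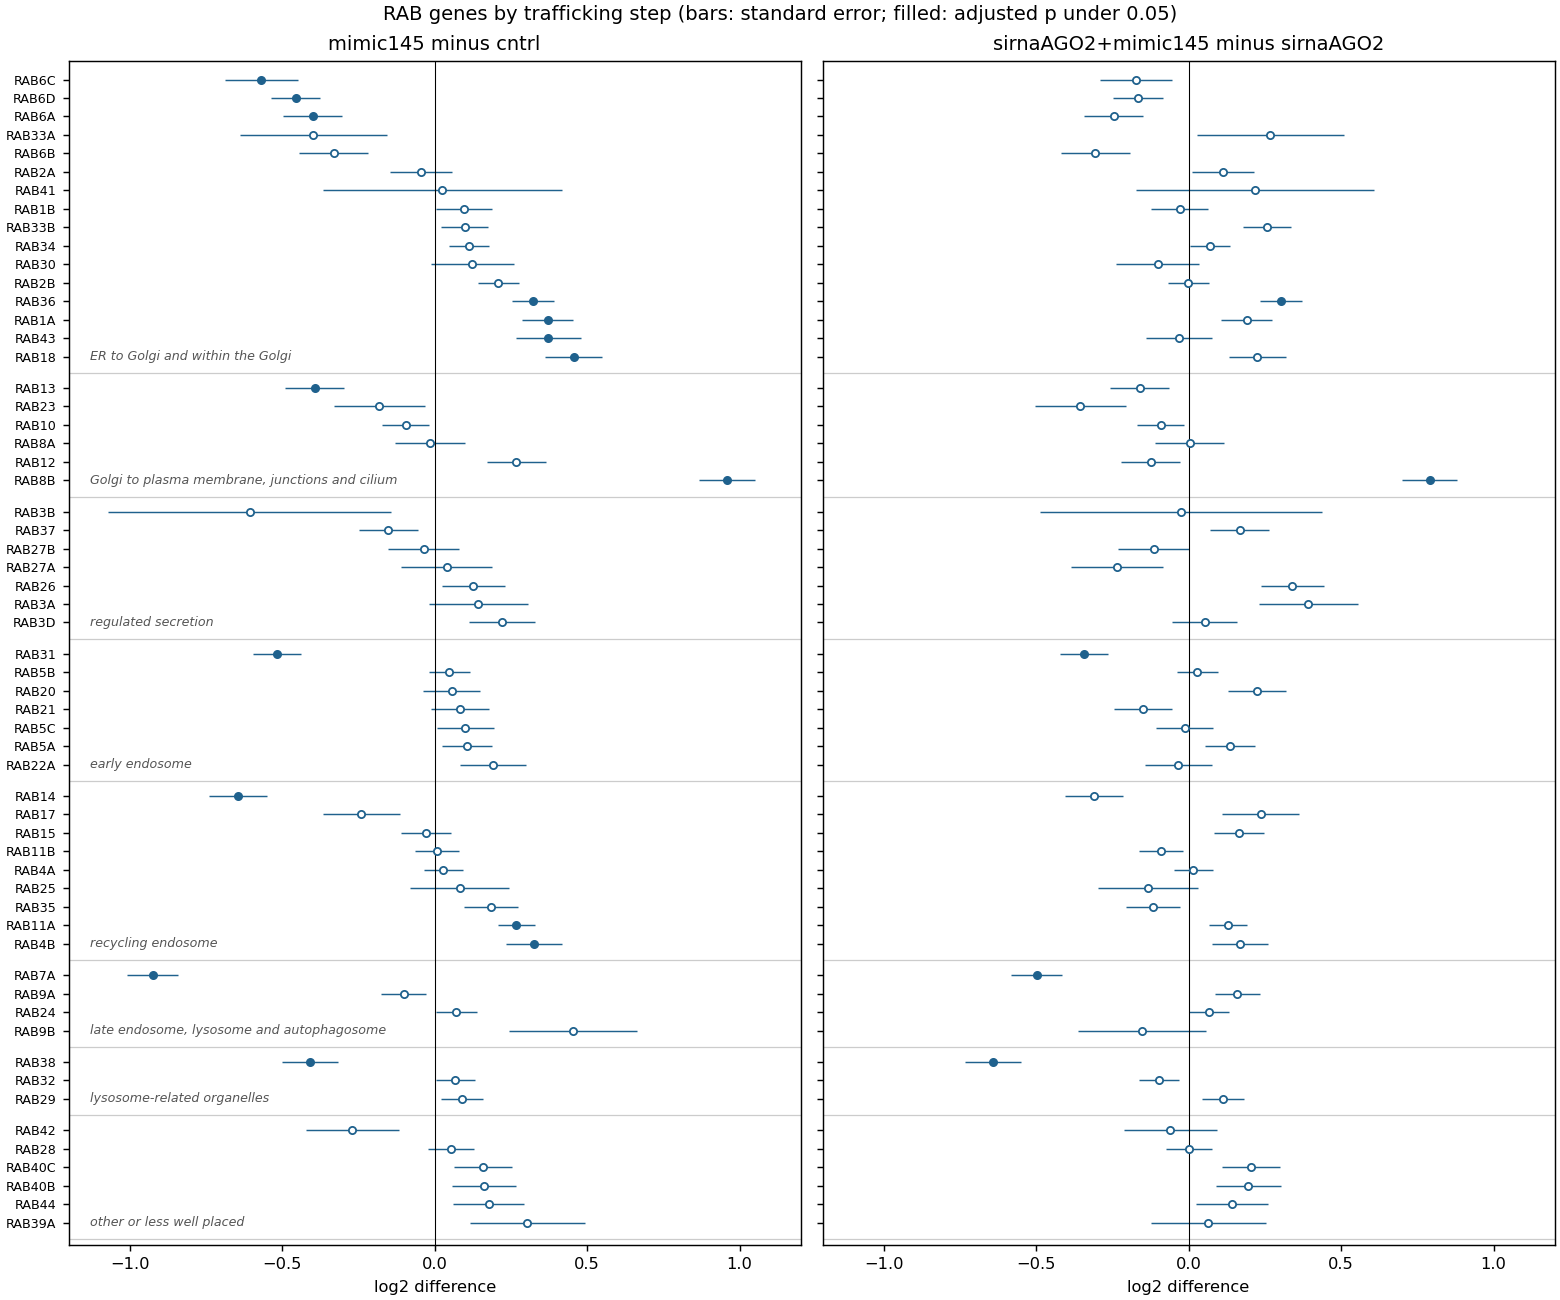
Log2 difference made by the mimic for each of the 58 RAB genes, grouped by the trafficking step they are known for, in control cells (left) and in AGO2-silenced cells (right); bars are standard errors and filled points passed at an adjusted p under 0.05. In control cells filled points appear at 6 of the 8 steps, with both directions at the ER and Golgi, toward the plasma membrane and at recycling endosomes.

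On the route from the Golgi to the plasma membrane, RAB8B and RAB13 passed in opposite directions. RAB8B, which with RAB8A delivers membrane to the cell surface and the cilium, read 8.18, 7.86 and 8.36 in cntrl and 9.29, 8.83 and 9.16 in mimic145. It was the member that rose the most, by 0.96 (SE 0.091, adjusted p = 0.000285) or 1.94-fold, and all 4 kept probes were higher, by 0.60 to 1.38. Where its other 4 probes, which were dim, were counted too, the log2 difference was 0.42 (adjusted p = 0.0265). RAB13, which brings proteins to tight junctions, read 11.02, 11.13 and 10.87 in cntrl and 10.50, 10.61 and 10.73 in mimic145. The groups were apart, all 8 probes were lower, and the pairs differed by -0.53, -0.52 and -0.13 (log2 difference -0.39, SE 0.097, adjusted p = 0.0191). RAB10, which carries vesicles to the plasma membrane, read 11.53 ± 0.22 (SD, n = 3) in cntrl and had a log2 difference of -0.09, which did not pass, and neither did RAB8A at -0.02, RAB12 at 0.27 and RAB23 at -0.18.

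Of the RABs of lysosome-related organelles, RAB38, which acts in the making of melanosomes, fell. It read 8.26, 8.04 and 7.44 in cntrl and 7.80, 7.51 and 7.20 in mimic145. The groups overlapped because replicate 3 was low in each, and the pairs differed by -0.46, -0.53 and -0.24 (log2 difference -0.41, SE 0.092, adjusted p = 0.0133). Its 3 probes disagreed: 2 were lower, by -0.73 and -0.53, and the third was at 0.035. With the median over probes, taken on each array, the difference was 0.035, that of the third probe (adjusted p = 0.874), with only probes above background on every array it was -0.25 (adjusted p = 0.0613), and with 75th percentile scaling it was -0.32 (adjusted p = 0.128). RAB32, the closest paralog of RAB38, read 10.68 ± 0.20 (SD, n = 3) in cntrl and had a log2 difference of 0.07 and RAB29 one of 0.09, and neither passed.

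None of the 7 measured RABs of regulated secretion passed by limma, and 0 of them had an unadjusted p under 0.05. Of all 18253 genes, 4121 passed and 6463 had an unadjusted p under 0.05 in this comparison. The 7 RABs include RAB27A and RAB27B, which dock secretory vesicles and exosome-bearing endosomes, at log2 differences of 0.04 and -0.04. RAB3B, of the RAB3 group of regulated exocytosis, read 9.53 ± 0.45 (SD, n = 3) in cntrl. It read 7.52 on the array of mimic145 replicate 1 against 9.71 and 9.53 on the other mimic145 arrays. Its log2 difference of -0.61 had an SE of 0.46 and did not pass (adjusted p = 0.387). RAB3A, RAB3D, RAB26 and RAB37 ran from -0.15 for RAB37 to 0.22 for RAB3D. None of the 6 members placed elsewhere passed (RAB28, RAB39A, RAB40B, RAB40C, RAB42 and RAB44, from -0.27 for RAB42 to 0.30 for RAB39A). RAB42 read 8.90 ± 0.13 (SD, n = 3) in cntrl.

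The count of 15 rested on the replicate block and on the shared estimate of spread. It was 6 without the block, 6 with only the 6 arrays of the comparison, and 0 by the methods' paired t-test, with 10 genes at an unadjusted p under 0.05. It was 3 without replicate 1, 8 without replicate 3 and 8 without mimic145 replicate 1. The counts of all genes under these alternatives are not given here, so these counts describe the members only. RAB7A, RAB14 and RAB8B each passed under 25 of 26 alternatives and RAB31 under 24, while RAB38 passed under 14, RAB4B under 13 and RAB43 under 9.

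**Figure D3:**
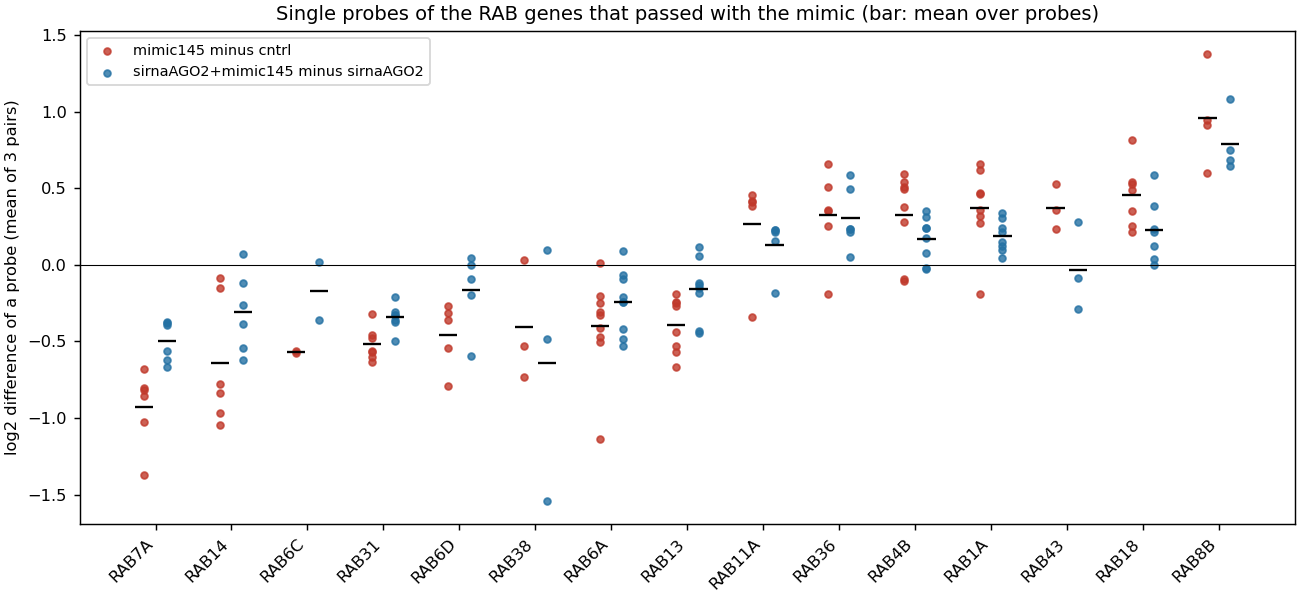
Log2 difference of every kept probe of the 15 RAB genes, as the mean of 3 replicate pairs, in control cells (red) and AGO2-silenced cells (blue), with the mean over probes as a bar. All probes of RAB7A, RAB31 and RAB8B lie on 1 side of 0 in both, while RAB14 has 2 probes near 0 in control cells and RAB38 has 1 probe at 0.035 and 0.10.

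In AGO2-silenced cells the mimic moved 5 RAB genes, RAB7A, RAB31 and RAB38 downward and RAB8B and RAB36 upward. That is 8.62% of the members, against 7.28% of all genes, of which 3.03% were lower and 4.25% higher. Each of the 5 had also passed in control cells in the same direction, and 0 members passed in silenced cells only. The share of all genes that passed in both arms was not computed, so these counts describe the members only. The groups did not overlap for 12 members, 5 lower and 7 higher, or 20.7% against 24.1% of all genes (10.2% lower and 13.9% higher).

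RAB7A read 11.59, 11.37 and 11.61 in sirnaAGO2 and 11.15, 10.90 and 11.03 in sirnaAGO2+mimic145. The groups were separate and all 6 probes were again lower, by -0.67 to -0.37 (log2 difference -0.50, SE 0.084, adjusted p = 0.0172), which leaves 70.8% of the sirnaAGO2 signal. RAB31 read 10.73, 10.74 and 10.88 in sirnaAGO2 and 10.38, 10.37 and 10.57 in sirnaAGO2+mimic145, and all 7 probes were lower (log2 difference -0.34, SE 0.078, adjusted p = 0.0372). RAB8B read 8.41, 8.17 and 8.22 in sirnaAGO2 and 9.21, 8.78 and 9.18 in sirnaAGO2+mimic145, a rise of 0.79 (SE 0.091, adjusted p = 0.00542) or 1.73-fold with all 4 probes higher. On the log2 scale the difference for RAB7A was -0.50 here and -0.93 in control cells, and that for RAB8B 0.79 and 0.96. Whether these differ is tested after the single genes.

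RAB38 read 8.23, 8.04 and 7.65 in sirnaAGO2 and 7.45, 7.41 and 7.13 in sirnaAGO2+mimic145, without overlap (log2 difference -0.64, SE 0.092, adjusted p = 0.0117). Its probes again disagreed, from -1.54 to 0.10, and 1 of the 3 was above background on no sirnaAGO2+mimic145 array. With only probes above background on every array the difference was -0.19 (adjusted p = 0.175), and with the median over probes it was 0.10 (adjusted p = 0.638). RAB36 read 7.13, 7.22 and 6.93 in sirnaAGO2 and 7.33, 7.53 and 7.33 in sirnaAGO2+mimic145 (log2 difference 0.30, SE 0.068, adjusted p = 0.0365), or 0.50 with 75th percentile scaling, under which the median of all genes stood at 0.11. RAB14 read 10.92, 10.81 and 10.91 in sirnaAGO2 and 10.69, 10.45 and 10.57 in sirnaAGO2+mimic145. Its arrays did not overlap, but its log2 difference of -0.31 (SE 0.095) did not pass (adjusted p = 0.0763).

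Of the 8 members that fell in control cells, the estimates in silenced cells were below 0 for all 8, between -0.64 and -0.16, and for 7 of them in every replicate pair. Of the 7 that rose, 6 had estimates above 0, RAB43 being the exception at -0.03. Their highest values were 0.79 for RAB8B and 0.30 for RAB36, and RAB18, RAB1A, RAB4B and RAB11A lay between 0.13 and 0.22 without passing. Sign agreement between the arms was not computed over all genes, so these signs are a description only. The count of 5 was 8 with normexp and 0 without the block, by the methods' paired t-test (7 at an unadjusted p under 0.05) and with only the arrays of the comparison. It was 1 without replicate 1, 0 without replicate 2 and 0 without replicate 3, and among single arrays it was 2, 1 and 1 without sirnaAGO2 replicates 1, 2 and 3, 2 and 2 without sirnaAGO2+mimic145 replicates 2 and 3, and 3 without cntrl replicate 2. RAB8B, with its dim probes counted, had a log2 difference of 0.36 and did not pass (adjusted p = 0.0806). The counts under alternatives are given without those of all genes and describe the members only.

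**Figure D4:**
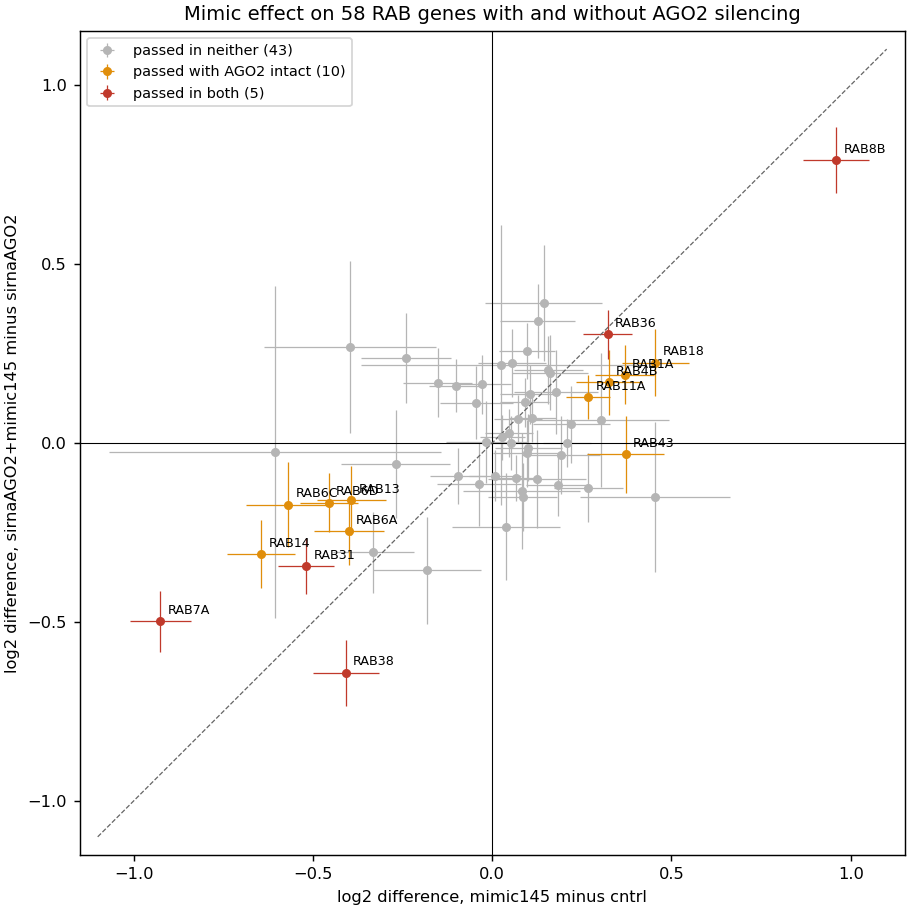
Log2 difference made by the mimic in control cells (x axis) and in AGO2-silenced cells (y axis) for the 58 RAB genes, with standard errors; the dashed line marks equal effects. The 5 genes that passed in both (red) lie at the lower left and upper right, and RAB7A at -0.93 and -0.50 lies above the line.

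The difference between the mimic effects was tested directly, as the effect in silenced cells minus that in control cells. No RAB gene passed by limma, against 2 of all genes (0.011%), and 10 of the 58 had an unadjusted p under 0.05, which is 17.2% of the members where all genes gave 16.8%. By the methods' paired t-test on the same difference the count was also 0, with 4 at an unadjusted p under 0.05. RAB7A had the lowest adjusted p, with a difference of 0.43 (SE 0.12, unadjusted p = 0.00588, adjusted p = 0.147) and the same sign in 3 of 3 pairs. RAB14 differed by 0.33 (SE 0.13, adjusted p = 0.266) and RAB8B by -0.17 (SE 0.13, adjusted p = 0.522). Of the 8 genes that fell, 7 had a positive difference, RAB38 being the exception at -0.23, and all 7 that rose had a negative one, from -0.40 for RAB43 to -0.02 for RAB36. The genes were picked by the size of their effect in control cells, which enters this difference, so these signs are a description only.

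AGO2 silencing on its own moved 1 of the 58 RABs, or 1.72%, where 2.58% of all genes passed and 1.69% were lower. RAB17, an epithelial RAB of recycling endosomes, read 8.50, 8.47 and 8.16 in cntrl and 7.60, 7.93 and 7.75 in sirnaAGO2. All sirnaAGO2 arrays were lower, and the log2 difference was -0.62 (SE 0.13, adjusted p = 0.0420). The value came from 2 of its 6 probes, at -0.91 and -0.33, and with the dim probes counted it was -0.30 (adjusted p = 0.167). It did not pass without any one of the 3 replicates, and of 26 alternatives it passed under 8. RAB7A had a log2 difference of 0.02 and RAB14 of 0.04 in this comparison, with 3 arrays on each side whose ranges overlapped.

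Cells with the mimic were also compared with and without silencing, a comparison that shares its arrays with both mimic comparisons. Here 4 RABs passed (6.90%, against 4.32% of all genes, 2.44% lower and 1.87% higher), RAB12, RAB2B and RAB32 lower and RAB7A higher. RAB7A rose from 10.54, 10.55 and 10.65 in mimic145 to 11.15, 10.90 and 11.03 in sirnaAGO2+mimic145, without overlap (log2 difference 0.45, SE 0.084, adjusted p = 0.0256), and so stood between its mimic145 and its cntrl level. RAB2B, a Golgi RAB, fell from 7.89, 7.69 and 7.94 to 7.54, 7.29 and 7.55 with all 9 probes lower (log2 difference -0.38, SE 0.068, adjusted p = 0.0208), or by 0.24 with normexp. RAB12 acts in the degradation of the transferrin receptor, although it was grouped above with the route to the plasma membrane. It read 9.88, 9.78 and 10.12 in mimic145 and 9.62, 9.41 and 9.40 in sirnaAGO2+mimic145 (log2 difference -0.45, SE 0.097, adjusted p = 0.0374). RAB32 had overlapping arrays (log2 difference -0.29, SE 0.064, adjusted p = 0.0426), and with the median over probes its difference was -0.16 (adjusted p = 0.472).

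Arrays with and without silencing lay on different slides. A fit that took the slide as random gave a count of 0 both for silencing alone and for silencing with the mimic. That fit also left out the replicate block, which by itself gave 0 for both, so it does not isolate the slide. The same counts were 0 without the replicate block, by the methods' paired t-test (10 and 6 at an unadjusted p under 0.05) and without any one of the 3 replicates. The counts of all genes under these alternatives are not given here. Without a single array of cntrl or sirnaAGO2 the count for silencing alone was also 0, and for silencing with the mimic it ran from 0 to 4 over single arrays and was above 2 only without cntrl replicate 3. The mimic comparisons were made within slides, where the mimic array always held the second position, so position and mimic cannot be told apart.

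Close paralogs were set against each other within each array, for 7 pairs chosen after the values were seen. The mimic changed RAB8B relative to RAB8A by 0.97 ± 0.37 (SD over 3 pairs) in control cells and by 0.79 ± 0.17 in silenced cells, while RAB8A alone differed by -0.02 and 0.00. The probes of RAB8A disagreed in control cells: 7 of 8 were higher, by at most 0.25, and 1 was at -0.99. RAB31 changed relative to RAB22A by -0.71 ± 0.066 and -0.31 ± 0.10, and RAB11A relative to RAB11B by 0.26 ± 0.16 and 0.22 ± 0.14. For these 3 pairs the within-array differences of the groups did not overlap in either arm (exact permutation test, two-sided, p = 0.1, the smallest that 3 arrays against 3 allow, so that no pair could pass before or after adjustment). RAB38 relative to RAB32 gave -0.48 ± 0.093 and -0.54 ± 0.13 with the same sign in every pair, but the arrays overlapped (exact p = 0.4 and 0.3, by a test that takes the arrays as unpaired). RAB1A relative to RAB1B gave 0.27 ± 0.070 (exact p = 0.2), RAB4B relative to RAB4A 0.30 ± 0.17 (exact p = 0.2) and RAB6A relative to RAB6B -0.07 ± 0.36 (exact p = 0.9) in control cells. For the last of these the spread exceeded the difference.

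The genes that regulate or read RAB proteins were taken from lists of 174 measured genes. Of 10 genes for prenylation and recycling, 4 passed in mimic145 against cntrl, or 40.0% against 22.6% of all genes. ARL6IP5 and PRAF2, both of the prenylated RAB acceptor family, differed by -0.77 (adjusted p = 0.000209) and 0.70 (adjusted p = 0.000612). The escort protein gene CHML differed by -0.54 on 1 probe (adjusted p = 0.0453). ARL6IP5 was also lower in sirnaAGO2 than in cntrl, by -0.50 (adjusted p = 0.0123).

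Of 56 exchange factor genes, 19 passed, 13 lower and 6 higher. That is 33.9%, against 22.6% of all genes (11% lower, 11.6% higher), and the median log2 difference was -0.06 over the list and 0.01 over all genes. DENND10 had the lowest value at -1.25 (adjusted p = 3.22e-05), or 42.1% of its cntrl signal, followed by DENND5B at -0.70 and DENND11 at -0.67, all of them DENN domain proteins. DENND10 also passed in silenced cells, at -1.01 (adjusted p = 0.000768). The highest were GAPVD1, an exchange factor for the RAB5 branch, at 0.60, MON1A, which forms the RAB7A exchange factor with CCZ1, at 0.57 (adjusted p = 0.000793), and TRAPPC5 of the TRAPP complexes at 0.29.

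Of 40 genes for GTPase-activating proteins, 10 passed, 8 lower and 2 higher, and of 68 effectors and tethers 17 passed, 15 lower and 2 higher. In either direction both lists stood at 25.0%, close to the 22.6% of all genes. By direction they were not close to all genes, of which 11% were lower and 11.6% higher. In both lists most genes that passed were lower, and whether this split differs from that of all genes was not tested. The median log2 difference was -0.09 over the first list, -0.01 over the second and 0.01 over all genes. TBC1D8B, TBC1D23 and TBC1D5 had the lowest values of the first list at -0.74, -0.59 and -0.50, and TBC1D17 and EVI5L were the genes that rose, by 0.48 and 0.36. In the second list OSBPL1A, the sterol-sensing RAB7A effector of late endosomes, was lowest at -0.79 (adjusted p = 0.000271, 30 probes), followed by the vesicle motor gene MYO5A at -0.65 and the RAB27 effector gene SYTL4 at -0.56. RAB11FIP2, an effector of RAB11 proteins, was higher by 0.64 (adjusted p = 0.000624) and the RAB5 effector gene APPL2 by 0.41 (adjusted p = 0.0190).

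Among the genes named here that act with RAB7A, the values in mimic145 against cntrl ran both ways. TBC1D5, OSBPL1A and MON1A were named for their large changes in this comparison. They do not stand for all regulators and effectors of RAB7A. The activating-protein gene TBC1D5 and the effector gene OSBPL1A were lower and the exchange factor gene MON1A was higher. The effector gene RILP, named after its value was seen, had a log2 difference of -0.17 and did not pass (adjusted p = 0.190). In silenced cells TBC1D5 was at -0.42 (adjusted p = 0.0338) and OSBPL1A at -0.51 (adjusted p = 0.0117). Over the 4 lists, 2 of 10, 4 of 56, 2 of 40 and 8 of 68 genes passed there, in the order in which the lists are given above. These are 20.0%, 7.14%, 5.00% and 11.8%, against 7.28% of all genes.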

How the data were processed

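MDA-MB-231 RNA was profiled on 12 arrays in 4 groups, with groups and replicate numbers from the labels. The authors deposited for each array the processed signal of Feature Extraction 10.7.3.1, a background-corrected intensity without normalization across arrays, and a matrix of log2 values, quantile normalized by the authors, which was used as an alternative only. Here control and outlier spots were removed, intensities under 1 set to 1 (there were 0), and signals brought to log2 after quantile normalization of the 12 arrays. A probe was kept where all its spots were well above background on all 3 arrays of a group. Of 404 RAB probes 308 were kept. Probes were averaged per gene, 142929 probes giving 18253 genes. A filter of this kind can pass a gene through the group where it is high. The number of arrays limits the precision, with a median standard error of 0.0990 over genes for the mimic in control cells.

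All arrays entered 1 model of 4 groups, blocked on the replicate number, with limma 3.58.1 (lmFit, eBayes) in R 4.3.3 (data.table version 1.17.8). Pairing follows the replicate numbers and the paired test of the study's methods. Deviations from group means correlated at 0.148 to 0.576 between arrays of the same number and at -0.497 to 0.201 between others. Fits were tested on simulated data, with residuals drawn independently for each array. The random slide fit, without the replicate block, gave arrays of 1 slide a consensus correlation of 0.395. The simulation held no slide effect, so it does not cover the comparisons between slides. Figures used Python 3.11.15, matplotlib 3.10.9 and pandas 2.3.3. Probes were named through their transcript in RefSeq (GRCh38.p14), and gene coordinates are not given because the array was designed on another build.

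The RAB members, the trafficking groups and the lists of regulators were chosen with earlier results of these data known. Named are the members that passed in any comparison, their paralogs, the member with the highest cntrl signal at each step (a rule for naming only, as signals of different probes are not amounts), and the regulators that passed with the mimic, at most 3 in each direction per list. A regulator that meets this rule is not reported here. Alternatives in processing were 75th percentile scaling, the authors' log2 values, normexp (offset 50), no or a stricter filter, and the probes' median. Alternatives in the fit were no replicate block, a random slide effect in its place, only the arrays compared, an intensity trend and the methods' t-test. Replicates and arrays were also left out.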

Additional observations from a re-analysis of the deposited data

Results flagged for a closer look

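The log2 differences of RAB17 and RAB9A with the mimic had opposite signs in the 2 arms, in all 3 replicate pairs of each, and neither gene passed in either arm (adjusted p = 0.208 and 0.247 for RAB17, 0.360 and 0.189 for RAB9A). They were picked from the RAB members by this rule. How many of all genes meet it was not counted, so the signs are a description only. RAB17 had a log2 difference of -0.24 in control cells against 0.24 after silencing, and the difference between the arms, 0.48, did not pass limma's test (adjusted p = 0.238). Its 2 kept probes were at -0.68 and 0.19 in control cells, and its sirnaAGO2 arrays are those that were lower than cntrl. RAB9A, which returns receptors from late endosomes to the Golgi, read 10.13, 10.20 and 10.01 in cntrl, 10.00, 10.08 and 9.95 in mimic145, 10.07, 9.96 and 9.94 in sirnaAGO2 and 10.15, 10.09 and 10.21 in sirnaAGO2+mimic145. Its log2 differences were -0.10 and 0.16, and the difference between the arms, 0.26, did not pass (adjusted p = 0.263).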

How the results depend on the processing

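The replicate block changed every count of RAB genes above 0. Without the replicate block it was 6 for the mimic in control cells and 0 for the mimic in silenced cells, for silencing alone and for silencing with the mimic. Fitted on the compared arrays alone, these counts were 6, 0, 0 and 0, and by the methods' paired t-test 0 in each. With a random slide effect in place of the replicate block the counts for silencing alone and with the mimic were 0. Normexp gave 8 for the mimic in silenced cells. For silencing alone the count was 2 with normexp, with the authors' table and with only probes above background on all 12 arrays, and 0 without a filter and with the median over probes, which gave 2 for silencing with the mimic. Leaving out a replicate or an array gave 3 to 17 for the mimic in control cells, 0 to 5 for the mimic in silenced cells, 0 to 2 for silencing alone and 0 to 4 for silencing with the mimic. The difference between the mimic effects had 0 under every alternative. All these counts are given without those of all genes, so they describe the members only. RAB38 reversed with the median over probes, to 0.035 in control cells and 0.10 in silenced cells, the value of 1 of its 3 probes. The causes of the other changes were not tested. No other named RAB call changed sign, and the regulators were not run under the alternatives. Signal over background limits the members with 1 or 2 kept probes, 13 of 58.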
